A study of Mus musculus with 6 samples.

Results

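The 10 circadian clock genes Clock, Arntl, Npas2, Per1, Per2, Per3, Cry1, Cry2, Dbp and Tef were followed in mouse kidney. They were taken by gene symbol from an expression table of 22183 genes, and all 10 were found in it. Kidney messenger RNA had been sequenced from mice given a plasmid that carries Wnt1, a secreted signalling ligand, in 3 libraries, and from mice given the empty plasmid pcDNA3, in 3 control libraries. The series title names progression of acute injury towards chronic disease of the kidney. The labels give all 6 libraries the same batch, and give no hour of sampling, light schedule, strain, sex, age, injury procedure, route of delivery or time after the plasmid. Separate animals are not stated either, so the p-values reflect the spread among these 6 libraries, and that spread may be technical. Because the hour of sampling is not labelled, a difference in hour between the groups cannot be told apart from a difference between the plasmids.

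The mammalian clock is a transcriptional feedback loop that runs in nearly every cell. CLOCK, or its relative NPAS2, pairs with BMAL1, the product of Arntl, and activates genes through E-boxes, among them the Per and Cry genes, Dbp and Nr1d1. PER and CRY proteins return to the nucleus and inhibit that pair, while NR1D1 represses Arntl. DBP, TEF and their relative HLF, the PAR bZIP factors, pass the rhythm on by activating genes through D-boxes, and in the kidney the clock is known for its daily control of salt and water handling.

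The promoters of 4 members are printed because Cry1, Dbp and Tef are 3 of the 4 members that differed between the groups (for Per2, the other one, the table has no entry), and Per3 holds the element that DBP and TEF bind. The windows run from 250 bases before to 50 bases after the start and come from RefSeq on the build GRCm38.p6, each 5′ to 3′ on the gene's strand. Capitals mark matches to the E-box CACGTG, its variant CACGTT, or the D-box TTATGTAA, on either strand.
Cry1, chr10:85185005-85185304, minus strand: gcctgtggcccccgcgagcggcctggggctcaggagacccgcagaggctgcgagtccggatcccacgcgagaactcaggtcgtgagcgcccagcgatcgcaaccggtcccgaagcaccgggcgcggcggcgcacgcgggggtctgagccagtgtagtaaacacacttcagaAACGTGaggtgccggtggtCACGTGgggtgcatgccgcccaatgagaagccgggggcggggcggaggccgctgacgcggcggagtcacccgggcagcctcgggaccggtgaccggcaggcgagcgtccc
Dbp, chr7:45704997-45705296, plus strand: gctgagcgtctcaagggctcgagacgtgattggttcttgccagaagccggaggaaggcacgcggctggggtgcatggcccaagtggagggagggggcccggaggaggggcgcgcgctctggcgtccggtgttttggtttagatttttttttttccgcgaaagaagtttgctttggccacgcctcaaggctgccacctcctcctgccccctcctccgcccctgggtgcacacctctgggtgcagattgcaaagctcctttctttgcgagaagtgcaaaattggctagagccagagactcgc
Tef, chr15:81802423-81802722, plus strand: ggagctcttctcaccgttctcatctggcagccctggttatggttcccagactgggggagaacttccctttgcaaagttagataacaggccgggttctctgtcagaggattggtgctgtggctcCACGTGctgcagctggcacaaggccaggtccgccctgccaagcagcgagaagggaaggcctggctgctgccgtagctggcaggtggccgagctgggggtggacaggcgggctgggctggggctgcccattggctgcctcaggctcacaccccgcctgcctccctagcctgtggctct
Per3, chr4:151044616-151044915, minus strand: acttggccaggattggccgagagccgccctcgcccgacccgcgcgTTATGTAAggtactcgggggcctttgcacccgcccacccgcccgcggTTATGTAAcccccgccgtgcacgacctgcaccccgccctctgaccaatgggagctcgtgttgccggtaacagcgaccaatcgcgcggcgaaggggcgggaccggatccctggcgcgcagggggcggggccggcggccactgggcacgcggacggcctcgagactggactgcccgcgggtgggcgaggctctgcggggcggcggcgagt

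Promoter entries were found for 9 of the 10 members, 14 windows in all. The E-box CACGTG stood in 4 of the 14 windows, from Cry1, Per1 and both starts of Tef, and in 7.15% of all 32851 windows in the table. In Cry1 it began 60 bases before the start, and the variant CACGTT, present in 4.68% of all windows and here read on the opposite strand, began 79 bases before it. Cry2 held the variant alone. The D-box, searched as TTATGTAA or TTACGTAA on both strands, matched 1.06% of all windows. Among the members it was found only in Per3, at 2 places beginning 205 and 158 bases before the start. The ROR element TAGGTCA, the type of site through which NR1D1 and the ROR receptors act, matched 2.61% of all windows and, among members, 1 of the 2 Arntl windows. The cyclic AMP response element TGACGTCA matched 1.79% of all windows and none of the 14. No motif overlapped another in the printed windows, Dbp had no match, and a match describes letters, not binding.

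Of the 10 members, 2 rose in Wnt1 kidneys (Cry1 and Per2), 2 fell (Dbp and Tef) and 6 did not pass the test. The test was edgeR's quasi-likelihood test on the estimated read counts, adjusted over all 14432 tested genes, and adjusted p under 0.05 made a call. Of all tested genes 41.1% were called, 22.4% higher and 18.7% lower, so a share of 4 in 10 members is near the background and is not a result about clock genes as a group. The median log2 fold change, Wnt1 over control, was 0.13 over the 10 members and 0.05 over all tested genes. In CPM, here counts scaled to the library total and its TMM factor, the groups did not overlap for 5 of the 10 members, against 53.5% of all tested genes. In 3 members all Wnt1 libraries lay above all controls, as in 28.2% of all tested genes, and in 2 below them, as in 25.3%.

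Library totals were between 23585020 and 27218085 counts with Wnt1, and between 24753193 and 26072435 in controls. Wnt1 itself had 0, 1 and 0 counts in Wnt1 replicates 1, 2 and 3 and 0 in each control library, so the plasmid's gene did not check the labels. At these depths a count of 0 leaves room for up to 3 counts, or 0.0951 to 0.138 CPM, by counting error alone. Scaling mattered: TMM factors were 1.12 to 1.19 with Wnt1 and 0.848 to 0.879 in controls, and scaling by library totals put the median log2 fold change of all genes at 0.47. Wnt1 replicate 3 and control replicate 3, titled PW5_1 and C6_1, stood apart from the other 4 libraries. In both, genes of low GC content read low: in the quintile of genes poorest in GC the median log2 difference from replicates 1 and 2 was -0.81 in Wnt1 replicate 3 and -0.55 in control replicate 3, while in the quintile richest in GC it was 0.42 and 0.11. Results that rest on these libraries are given with and without them.

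**Figure D1:**
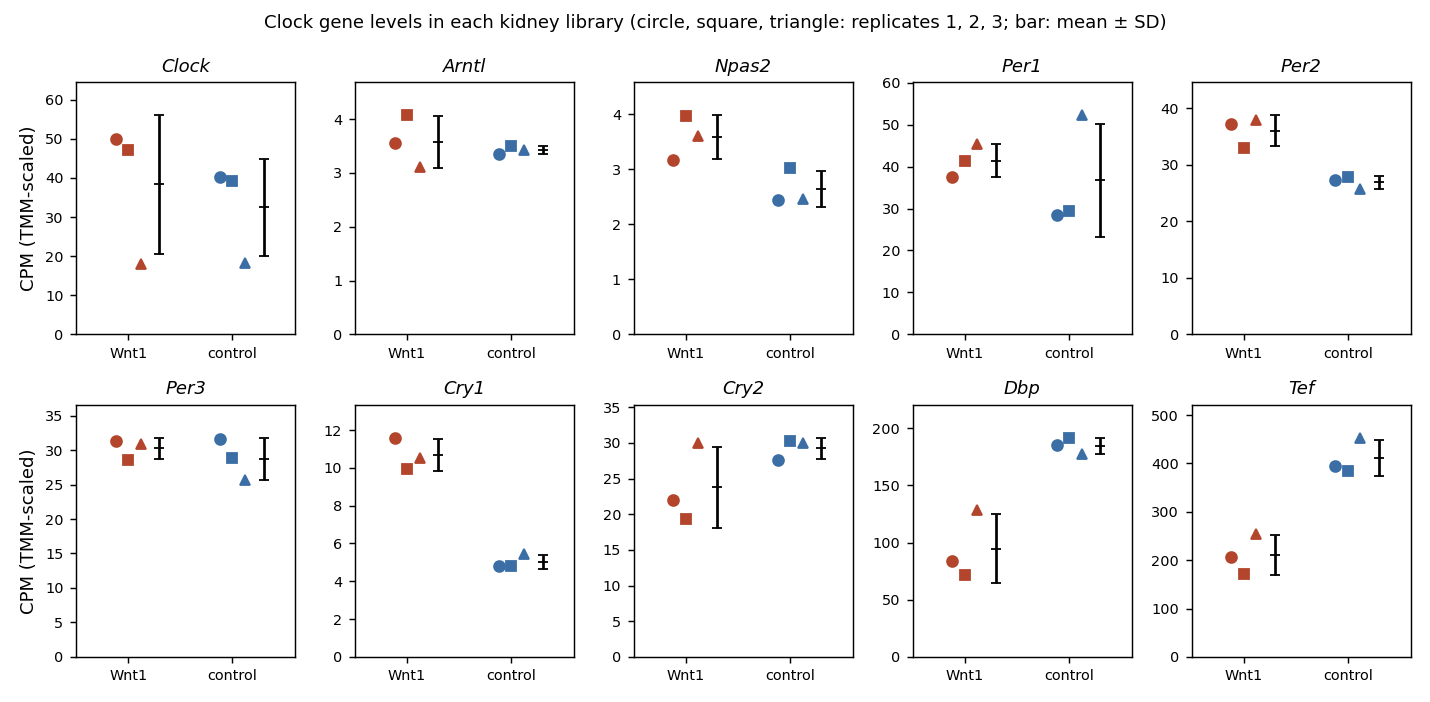
Level of each of the 10 clock genes in CPM scaled by TMM (vertical axes from 0), in the 3 Wnt1 and 3 control libraries; circles, squares and triangles are replicates 1, 2 and 3, and bars are mean ± SD. Cry1 and Per2 stand higher and Dbp and Tef lower in every Wnt1 library than in any control library, and Clock is low in both libraries numbered 3.

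The PAR bZIP output factors gave the largest falls among the members. Dbp, the albumin D-box binding protein and a standard readout of clock output, had 83.6, 72.0 and 129 CPM in Wnt1 replicates 1, 2 and 3, against 185, 191 and 177 CPM in control replicates 1, 2 and 3. All Wnt1 libraries lay under all controls, and Wnt1 replicate 3 was the nearest to them. Dbp was 1.95-fold lower with Wnt1, with -0.96 ± 0.21 on the log2 scale (SE; edgeR adjusted p = 0.00824).

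Tef, thyrotroph embryonic factor, had 206, 171 and 253 CPM in the Wnt1 libraries, against 394, 385 and 453 CPM in the control libraries. The groups did not overlap, and replicate 3 was the highest in both. Tef was 1.96-fold lower with Wnt1, or -0.97 ± 0.17 on the log2 scale (edgeR adjusted p = 0.00265). Without both libraries numbered 3 the log2 fold changes were -1.28 for Dbp and -1.05 for Tef. With library totals they were -0.55 for each, still called, at edgeR adjusted p = 0.0464 for Dbp and 0.0146 for Tef.

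Hlf, hepatic leukemia factor and the remaining PAR bZIP gene, is no member but belongs beside them. It had 59.3, 43.9 and 39.9 CPM with Wnt1 and 111, 129 and 97.3 CPM in controls, or -1.23 ± 0.19 as log2 fold change (edgeR adjusted p = 0.00141). Dbp, Tef and Hlf were thus each called lower, as were 18.7% of all tested genes, and Hlf comes from a list chosen with earlier results of these data known. In GRCm38, the assembly that mm10 names, Dbp lies on chromosome 7 (45705088 to 45710203) and shares 539 exonic bases with Sphk2 on the opposite strand. Tef lies on chromosome 15 (81802421 to 81826863) and shares 193 exonic bases with the antisense gene Gm17597. The sources used here do not say whether counting used strand, so reads in these stretches cannot be told apart. The same holds for 295 exonic bases of Cry2 shared with D930015M05Rik and 33 of Arntl shared with Gm45355. Per transcript length, in the deposited FPKM, Dbp and Tef were the most abundant members in both groups, at 63.5 ± 17.1 and 58.6 ± 10.1 FPKM with Wnt1 and 90.7 ± 4.16 and 85.1 ± 7.16 FPKM in controls (SD, n = 3 each).

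The cryptochromes parted. Cry1, whose protein is a strong repressor of the CLOCK and BMAL1 pair, had 11.6, 9.95 and 10.5 CPM in the Wnt1 libraries, against 4.83, 4.79 and 5.43 CPM in the control libraries. Every Wnt1 library stood well above every control, and within each group the libraries were close together. Cry1 was 2.13-fold higher with Wnt1, or 1.09 ± 0.16 on the log2 scale (edgeR adjusted p = 0.00132).

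Cry2, the other cryptochrome, had 21.9, 19.3 and 30.0 CPM with Wnt1 and 27.5, 30.3 and 29.9 CPM in controls. Wnt1 replicates 1 and 2 lay under all controls, whereas Wnt1 replicate 3 lay among them. Its log2 fold change was -0.30 ± 0.18 (95% interval -0.72 to 0.12; edgeR adjusted p = 0.226), and without Wnt1 replicate 3 it was -0.51 and called (edgeR adjusted p = 0.00882). The sign depended on the scaling, with 0.11 under library totals.

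Within a library the ratio of the cryptochromes does not depend on scaling. The log2 FPKM of Cry1 minus that of Cry2 was -0.60, -0.60 and -1.15 in Wnt1 replicates 1, 2 and 3, against -2.12, -2.28 and -2.11 in control replicates 1, 2 and 3. The groups were 1.39 apart without overlap. The edgeR log2 fold changes were 1.09 for Cry1 and -0.30 for Cry2, so the difference mostly repeats the rise of Cry1. An exact two-sided permutation test over libraries gave p = 0.1, the smallest that 3 against 3 allow, and adjusted p = 0.167 over the 5 pairs of members compared. Cry1 lies on chromosome 10 (85131700 to 85185064) and Cry2 on chromosome 2 (92403646 to 92434043).

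Among the Period genes, whose proteins join the cryptochromes in the repressor complex, Per2 rose. It had 37.3, 33.0 and 37.9 CPM with Wnt1, against 27.3, 27.9 and 25.7 CPM in controls. The groups did not overlap, and the log2 fold change was 0.42 ± 0.13 (edgeR adjusted p = 0.0289), or 1.34-fold higher. Without Wnt1 replicate 1 the call was lost (0.40; edgeR adjusted p = 0.0894), and with library totals the log2 fold change was 0.84.

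Per1, which also responds quickly to glucocorticoid and cyclic AMP signals, had 37.4, 41.3 and 45.4 CPM with Wnt1, against 28.5, 29.4 and 52.2 CPM in controls. Control replicate 3 stood above every other library, and the remaining controls stood under all Wnt1 libraries. The log2 fold change was 0.17 ± 0.24 (95% interval -0.39 to 0.74; edgeR adjusted p = 0.608). Without control replicate 3 it was 0.60 and called (edgeR adjusted p = 0.0158), and without both libraries numbered 3 it was 0.44 (edgeR adjusted p = 0.00373). In control replicate 3, Per1 was 0.85 higher in log2 CPM than in control replicates 1 and 2, against a median of 0.11 for all genes in its GC quintile.

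Per3 had 31.4, 28.5 and 30.9 CPM with Wnt1 and 31.6, 28.9 and 25.6 CPM in controls. The groups overlapped, with a log2 fold change of 0.08 ± 0.13 (95% interval -0.23 to 0.39; edgeR adjusted p = 0.68). With library totals it was 0.50 and called (edgeR adjusted p = 0.0154), close to the 0.47 by which that scaling places the median of all genes. Per1 lies on chromosome 11 (69095217 to 69109960), Per2 on chromosome 1 (91415982 to 91459324) and Per3 on chromosome 4 (151003652 to 151044665).

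None of the transcriptional activators was called. Arntl, which encodes BMAL1, had 3.55, 4.07 and 3.11 CPM with Wnt1 and 3.36, 3.50 and 3.42 CPM in controls. The Wnt1 libraries spread to both sides of the tightly grouped controls, with a log2 fold change of 0.06 ± 0.20 (95% interval -0.40 to 0.53; edgeR adjusted p = 0.832).

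Npas2, which can take the place of CLOCK, had 3.17, 3.97 and 3.60 CPM with Wnt1, against 2.44, 3.01 and 2.46 CPM in controls. The groups did not overlap, but the log2 fold change of 0.44 ± 0.22 was not called (95% interval -0.06 to 0.94; edgeR adjusted p = 0.144). With library totals it was 0.86 and called (edgeR adjusted p = 0.0124). Arntl and Npas2 were the least abundant members per length in both groups, at 1.47 ± 0.263 and 1.86 ± 0.764 FPKM with Wnt1 and 1.05 ± 0.0412 and 0.833 ± 0.438 FPKM in controls (SD, n = 3 each).

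Clock had 49.9, 47.2 and 18.0 CPM with Wnt1 and 40.3, 39.1 and 18.2 CPM in controls. The library numbered 3 was the lowest in each group, under every library numbered 1 or 2. The log2 fold change was 0.24 ± 0.43 (95% interval -0.76 to 1.24; edgeR adjusted p = 0.692), and without both libraries numbered 3 it was 0.29 and called (edgeR adjusted p = 0.0161). Arntl lies on chromosome 7 (113207465 to 113314126), Npas2 on chromosome 1 (39193731 to 39363236) and Clock on chromosome 5 (76209868 to 76304792).

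Clock dropped in both libraries numbered 3 and is a gene of low GC content, and whether the one caused the other was not tested. The drop was -1.43 in Wnt1 and -1.13 in control on the log2 CPM scale. The longest Clock transcript is 40.9% GC, in the quintile of genes poorest in GC, whose medians were less low, at -0.81 and -0.55. Of 27 tested clock genes, members and others, 4 were in that quintile. Of these, 3 were lower by over 0.5 in both libraries numbered 3: Clock, Nr1d2 and Rora, with 40.9% to 41.8% GC. The exception was Btrc, at 0.31 and 0.14. With an offset for GC content, added after seeing the data, the log2 fold change of Clock was -0.07 (edgeR adjusted p = 0.78). Dbp then had -1.04, Tef -0.93, Cry1 1.14 and Per2 0.47, each called as before, and Cry2 was called lower at -0.29 (edgeR adjusted p = 0.0413).

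**Figure D2:**
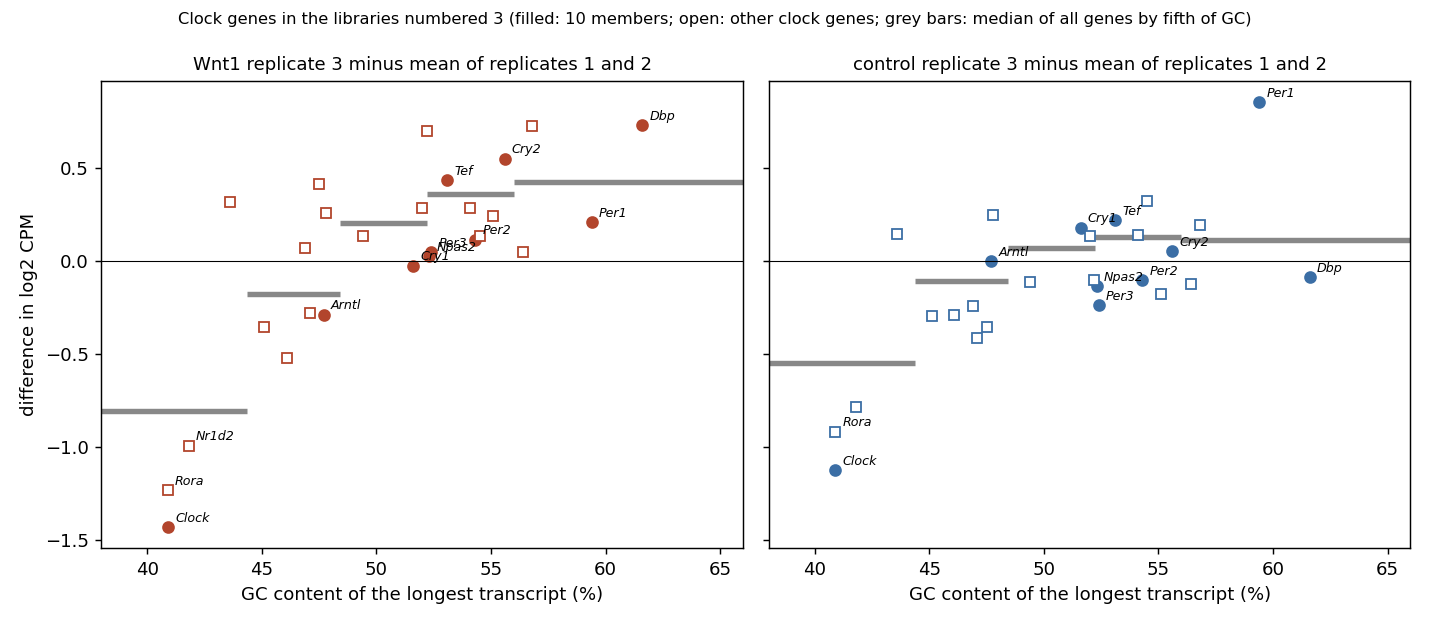
Difference in log2 CPM between replicate 3 and the mean of replicates 1 and 2 (vertical axis), with Wnt1 on the left and control on the right, against GC content of the longest transcript in percent (horizontal axis); filled circles are the 10 members, open squares other clock genes and grey bars the median of all genes by GC quintile. Clock lies at -1.43 and -1.13, with Nr1d2 and Rora near it. Of the genes shown, Per1 stands highest in control, at 0.85.

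In mouse tissues Arntl and Dbp are known to peak at opposite times of day. Per length, the log2 FPKM of Arntl minus that of Dbp was -5.27, -4.87 and -6.11 in Wnt1 replicates 1, 2 and 3, and -6.43, -6.46 and -6.43 in control replicates 1, 2 and 3. The SD over libraries was 0.636 with Wnt1 and 0.0161 in controls, and all Wnt1 values lay above all control values (difference of means 1.02; exact permutation p = 0.1, adjusted p = 0.167). The edgeR log2 fold changes were 0.06 for Arntl and -0.96 for Dbp, so the difference mostly repeats the fall of Dbp. Their transcripts differ in GC content, at 47.7% and 61.6%, and the part of this in the low value of Wnt1 replicate 3 was not tested. Arntl minus Per2 was -2.31, -1.97 and -2.60 with Wnt1, against -1.94, -1.96 and -1.90 in controls (difference -0.37; exact permutation p = 0.1, adjusted p = 0.167). For Arntl minus Dbp the groups stayed apart with CPM in place of FPKM. For Arntl minus Per2 they then overlapped, at -3.02 in both Wnt1 replicate 2 and control replicate 1, and leaving out 1 library moved the FPKM difference to between -0.53 and -0.21. For Npas2 minus Per3 (difference 0.70; exact permutation p = 0.3, adjusted p = 0.375) and Clock minus Npas2 (-0.58; exact permutation p = 0.4, adjusted p = 0.4) the groups overlapped. With CPM these differences were 0.36 and -0.25, and without 1 library the FPKM differences were 0.37 to 1.09 and -1.15 to -0.04.

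In order of FPKM the members ran Dbp, Tef, Per1, Per2, Cry2, Per3, Clock, Cry1, Npas2 and Arntl with Wnt1. In controls they ran Dbp, Tef, Per1, Cry2, Per3, Per2, Clock, Cry1, Arntl and Npas2. Dbp and Tef overlapped each other in both groups and stood apart from Per1, the next in order, which had 12.6 ± 1.08 FPKM with Wnt1 and 9.08 ± 4.70 FPKM in controls (SD, n = 3 each). Per2 (7.14 ± 0.351 FPKM with Wnt1 and 3.99 ± 0.228 FPKM in controls), Per3 (5.92 ± 0.216 and 4.19 ± 0.528 FPKM in the same order) and Clock (5.80 ± 2.89 and 3.59 ± 1.47 FPKM) made up the middle together with Cry2 (7.11 ± 1.40 and 6.43 ± 0.304 FPKM). Neighbours in this middle overlapped in range, except Cry2 and Per3 in controls. Cry1, at 4.09 ± 0.309 FPKM with Wnt1 and 1.43 ± 0.0811 FPKM in controls, overlapped Clock in the Wnt1 libraries and stood clear of both its neighbours in the controls.

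Outside the 10 members, 17 of 18 further clock genes could be tested, and 3 were called higher and 6 lower, 9 of 17 against the background of 41.1%. This list was chosen with earlier results of these data known. Nr1d1, which encodes the repressor REV-ERB alpha and is a classical E-box target, had 53.7, 47.2 and 83.0 CPM with Wnt1, against 119.8 ± 15.4 CPM in controls, the lowest at 102 CPM (SD, n = 3; log2 fold change -0.97 ± 0.22; edgeR adjusted p = 0.0102). As for Dbp, Wnt1 replicate 3 was the nearest to the controls. Nr1d2, from the same list, overlapped between groups and was not called (log2 fold change -0.24 ± 0.32; edgeR adjusted p = 0.585). Nr1d1 shares 263 exonic bases with Thra on the opposite strand, and with library totals its log2 fold change was -0.56 and not called (edgeR adjusted p = 0.0569). Ciart, a repressor of the CLOCK and BMAL1 pair, had 4.03, 2.30 and 4.93 CPM with Wnt1 and 8.23, 5.89 and 6.48 CPM in controls. It fell by 0.87 on the log2 scale (edgeR adjusted p = 0.0474), but kept its call in only 7 of 18 alternatives. With library totals it was at -0.46 and not called (edgeR adjusted p = 0.206), and leaving out any of the libraries except Wnt1 replicate 3 ended the call (edgeR adjusted p 0.075 to 0.157).

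Those called higher were Arntl2, Timeless and Csnk1e. Arntl2, which encodes BMAL2, a relative of BMAL1, averaged 2.23 ± 0.409 CPM with Wnt1 and 0.652 ± 0.313 CPM in controls (SD, n = 3 each), or 1.77 ± 0.37 as log2 fold change (edgeR adjusted p = 0.00625). Timeless, whose mammalian protein is also known in DNA replication, averaged 11.5 ± 1.17 and 5.36 ± 0.375 CPM in the same order (1.10 ± 0.17; edgeR adjusted p = 0.00134). Csnk1e, a kinase that phosphorylates PER proteins, averaged 32.3 ± 1.62 and 16.2 ± 0.831 CPM (0.99 ± 0.13; edgeR adjusted p = 0.000639). Timeless shares 111 exonic bases with Gm26847 and Csnk1e 267 with Gm16059, both on the opposite strand. Csnk1d, a close relative of Csnk1e, did not overlap between groups but did not pass the test (log2 fold change 0.23 ± 0.13; edgeR adjusted p = 0.196). It was called higher in 5 of 18 alternatives, among them the GC offset (0.28; edgeR adjusted p = 0.0144).

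Among ubiquitin ligase genes of the clock, Fbxl21, Btrc and Fbxw11 fell. Their log2 fold changes were -1.49 ± 0.23, -0.68 ± 0.15 and -0.47 ± 0.14 (edgeR adjusted p = 0.00152, 0.00746 and 0.0299). With library totals Btrc and Fbxw11 were not called, at -0.26 and -0.05. Fbxw11 was also not called without Wnt1 replicate 1 or 2 or control replicate 1 or 3 (edgeR adjusted p 0.0892 to 0.11). Nfil3, the repressor that competes with DBP, TEF and HLF for D-boxes, had 5.42, 7.26 and 6.87 CPM with Wnt1 and 3.36, 5.36 and 5.30 CPM in controls, without overlap and not called (0.48 ± 0.24; edgeR adjusted p = 0.151). Bhlhe40, a repressor that binds E-boxes, likewise did not overlap between groups and was not called (0.36 ± 0.14; edgeR adjusted p = 0.0717). Nfil3 was called higher in 4 of 18 alternatives and Bhlhe40 in 8 of 18. For Bhlhe40 these included library totals (0.78; edgeR adjusted p = 0.00216) and the GC offset (0.39; edgeR adjusted p = 0.0219).

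**Figure D3:**
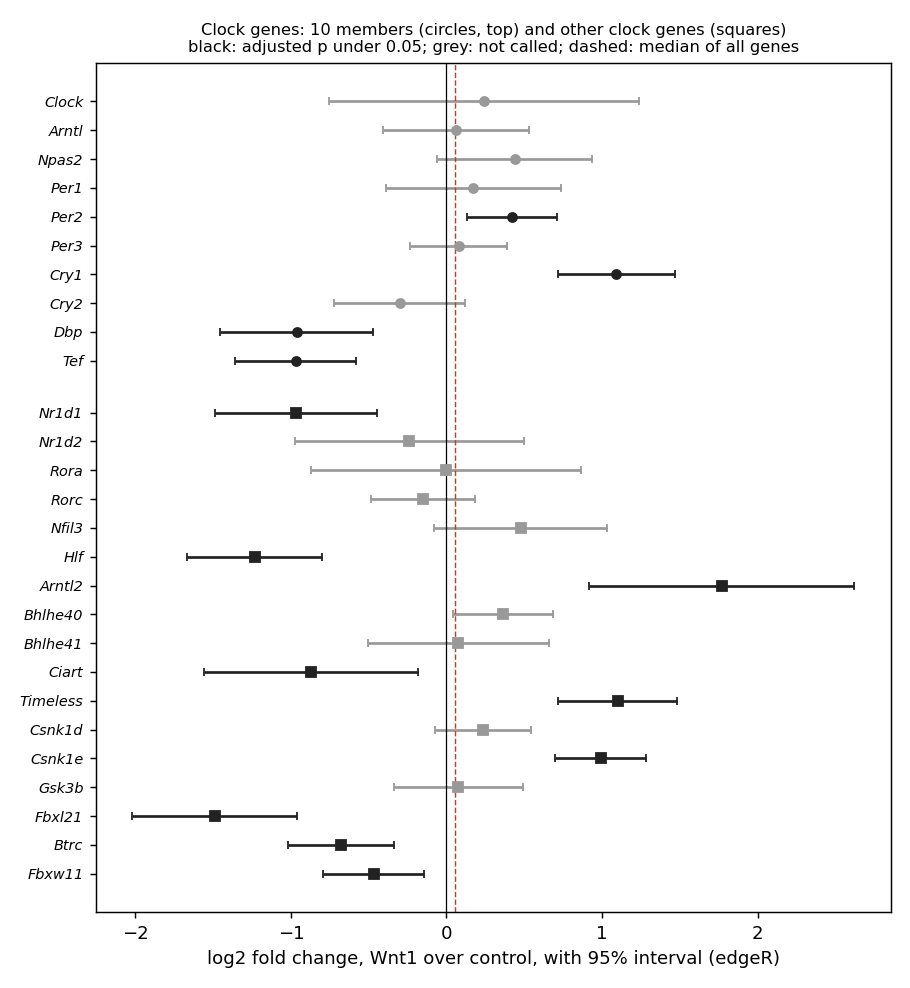
Log2 fold change, Wnt1 over control, with its 95% interval (horizontal axis) for the 10 members (circles, upper block) and 17 other clock genes (squares, lower block); black marks an adjusted p under 0.05, grey the rest, and the dashed line the median of all tested genes. Cry1 at 1.09 and Per2 at 0.42 lie to the right, Dbp at -0.96 and Tef at -0.97 to the left, with Nr1d1 and Hlf beside them.

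Of 11 genes listed as outputs of the clock, 1 was called higher and 5 lower, with a median log2 fold change of -0.54 against 0.05 over all tested genes. These 54.5% called compare with 41.1% of all tested genes, of which 22.4% were higher and 18.7% lower. The list shares genes with the collecting duct markers given below, so these lists are not separate observations. The 4 with the smallest p were Edn1, Slc9a3, Por and Usp2. Slc9a3, the sodium-proton exchanger of the proximal tubule, was at -1.39 ± 0.15 on the log2 scale (edgeR adjusted p = 0.000272), Por, which passes electrons to cytochrome P450 enzymes, -1.14 ± 0.16 (edgeR adjusted p = 0.00107) and Usp2, a deubiquitinase, -1.17 ± 0.19 (edgeR adjusted p = 0.00203). Edn1, the vasoconstrictor endothelin 1, rose by 3.68 ± 0.27 on the log2 scale (edgeR adjusted p = 7.32e-05). Of 7 glucocorticoid-induced genes, which follow a hormone with its own daily rhythm, 28.6% were called, under that background: Ddit4 was called higher at 1.41 ± 0.37 (edgeR adjusted p = 0.0184) and Errfi1 lower at -0.51 ± 0.12 (edgeR adjusted p = 0.0115). With library totals Errfi1 was at -0.09 and not called, nor was it without control replicate 2 or 3 (edgeR adjusted p = 0.0796 and 0.0814). Ddit4 was not called without control replicate 1 or 2 (edgeR adjusted p = 0.0508 and 0.0753). Like Per1, genes induced by glucocorticoid differed in control replicate 3 from the mean of control replicates 1 and 2. In log2 CPM the differences were 1.72 for Zbtb16, 1.19 for Ddit4, 0.85 for Tsc22d3, 0.53 for Fkbp5 and 0.51 for Sgk1. Errfi1 was at 0.18 and Klf9 at -0.57, and the cause was not tested.

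Levels of cell type markers moved with the groups, and the part of cell makeup in the clock gene results was not tested. In bulk RNA, fewer cells of a type and less RNA per cell cannot be told apart. Lower and higher here mean called by edgeR, as were 18.7% and 22.4% of all tested genes, and the remaining markers were not called. Proximal tubule markers were lower in 7 of 8 and summed to between 4092 and 4989 CPM with Wnt1, against 15937 to 17109 CPM in controls. Markers of the thick ascending limb and distal convoluted tubule were lower in 6 of 7 and summed to between 2775 and 4448 CPM with Wnt1, against 10468 to 11332 CPM in controls. Collecting duct markers were lower in 4 of 8 (380.5 to 716 CPM with Wnt1, against 799.9 to 889 CPM in controls) and endothelial markers in 4 of 7 (442 to 588 CPM, against 639.6 to 767 CPM). All 6 injured tubule markers were higher (3591 to 4260 CPM with Wnt1, against 413 to 473 CPM in controls), as were all 8 macrophage markers (1705 to 2045 CPM, against 210.2 to 253 CPM). All 7 T cell markers (24.7 to 34.7 CPM with Wnt1, against 8.86 to 11.001 CPM in controls) and all 8 fibroblast and mural cell markers (1652 to 2683 CPM, against 413 to 534 CPM) were higher too. No marker was at 0 in any library.

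**Figure D4:**
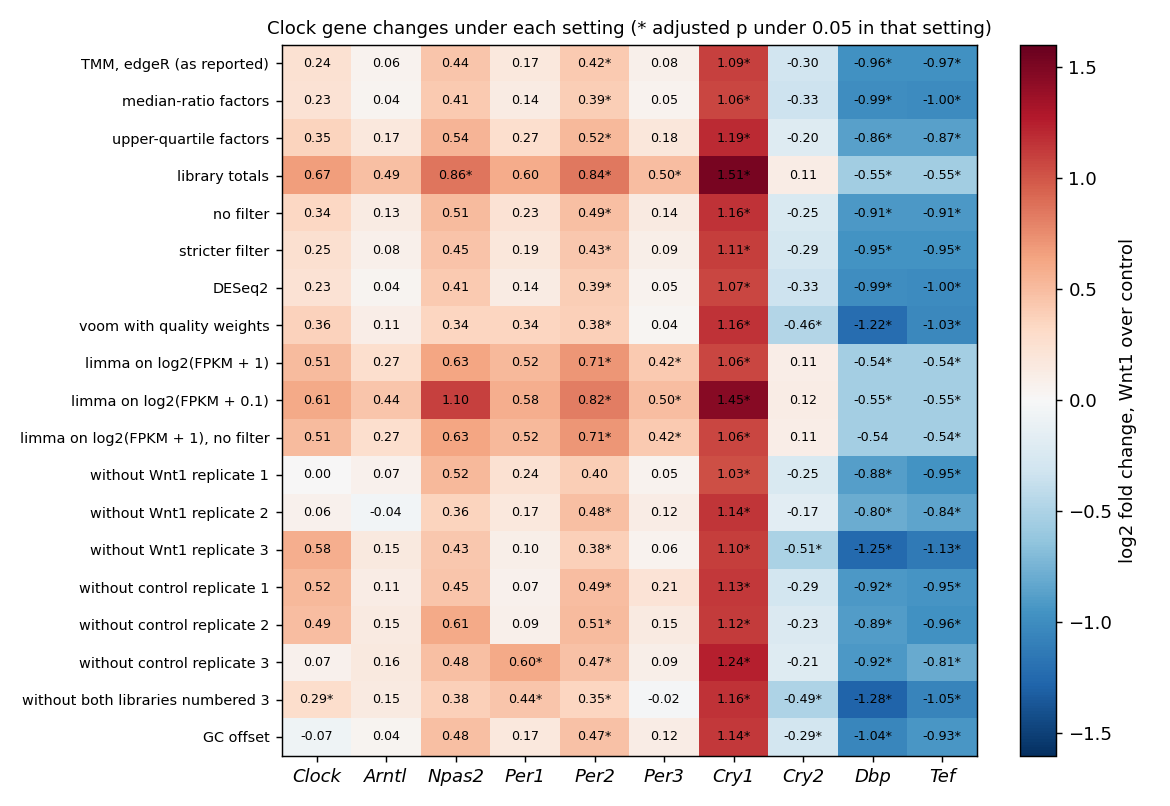
Log2 fold change, Wnt1 over control, of each member (columns) under the reported fit and each of 18 alternatives (rows); colour gives the value printed in each cell, and a star marks an adjusted p under 0.05 in that setting. Cry1 and Tef carry a star in every row, Per2 lacks it without Wnt1 replicate 1, and Dbp lacks it with limma on log2(FPKM + 1) and no filter.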

How the data were processed

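Kidney messenger RNA of 3 Wnt1 and 3 control libraries had been enriched on oligo(dT) beads and sequenced, per the labels' protocols. The submitters' processing notes name the build mm10 and the tools RSEM, StringTie 1.3.1, HISAT2, Bowtie2 2.2.8 and fastp 0.18.0. Which tool did what, the annotation and any use of strand are not stated there. Each gene and library has an expected count (estimated reads) that the authors deposited; 9.02% differed from a whole number by over 1e-06 and all were rounded. The authors also deposited FPKM values, scaled by transcript length and library total.

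Groups came from the treatment labels; replicates are numbered in record order and pair nothing. Counts were tested with edgeR 4.0.16 in R 4.3.3 (filterByExpr, TMM, robust quasi-likelihood test, two-sided, Benjamini-Hochberg over 14432 genes). CPM divide each count by the TMM-scaled library total. Standard errors were derived from the coefficient and the F statistic, so they hold no information beyond the p-value. The procedure was tested on simulated counts in which equal numbers of genes rose and fell and no library had a GC effect. That setting differs from these data and could not test the scaling between the groups. Alternatives were DESeq2 1.42.0, voom and limma 3.58.1 on log2(FPKM + 1) or log2(FPKM + 0.1), other factors and filters, leaving out libraries, and a GC offset. GC content and gene locations came from GENCODE annotation of GRCm38, matched by Ensembl identifier for 22128 genes; promoters came from RefSeq. Members, lists and tests were chosen with earlier results of these data known. All 10 members passed the count filter. All members and the called or non-overlapping other clock genes are named, with up to 4 called genes of each output list. A gene that was listed among the other clock genes is not reported here.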

Additional observations from a re-analysis of the deposited data

How the results depend on the processing

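Each of the 10 members was followed through 18 alternatives. Of these 180 values, 159 kept their direction and their side of the threshold, 12 newly passed it, 2 no longer did and 7 changed sign, all of these last for members that were not called. The changes of sign were Clock at -0.066 with the GC offset, Arntl at -0.040 without Wnt1 replicate 2 (range over libraries left out -0.040 to 0.16), Per3 at -0.017 without both libraries numbered 3, and Cry2 at 0.11 with library totals, 0.11 with limma on log2(FPKM + 1) with and without a filter, and 0.12 on log2(FPKM + 0.1). Cry1 and Tef were called in 18 of 18 alternatives (log2 fold changes 1.03 to 1.51 and -1.13 to -0.54), Per2 and Dbp in 17. Members called higher numbered 4 with library totals and 4 without both libraries numbered 3, against 2. All tested genes called higher also became more, at 6348 of 14432 and 4664 of 14563 in the same order, against 3239. Members called lower numbered 1 with limma on log2(FPKM + 1) and no filter, against 2. In that fit 1292 of 17996 genes were called lower, against 2697 of 14432. Leaving out 1 library gave 1 to 3 members higher and 2 to 3 lower. The genes called in these fits ranged from 4518 of 14686 without control replicate 2 to 8142 of 14622 without Wnt1 replicate 3. By direction, 2681 to 4165 genes were called higher and 1797 to 3977 lower. Of the other clock genes, 6 were higher with library totals and in each FPKM fit, and 5 with the GC offset, against 3. Lower were 2 with library totals, 3 in the filtered FPKM fits and 2 in the unfiltered one, against 6. The calls over all tested genes moved too, from 3239 higher and 2697 lower. They were 6348 and 1288 with library totals, and 5177 and 1250 of 12520 with limma on log2(FPKM + 1). With the GC offset they were 3961 and 3900. These counts of clock genes are thus no result about the clock. Leaving out 1 library gave 3 to 4 of the other clock genes higher and 4 to 6 lower, with the same moving background as for the members. Apart from the arithmetic of scaling, which shifts all genes together, the cause of these changes was not tested. The within-library differences kept their sign with CPM in place of FPKM, with 0.1 added and without any 1 library, where Cry1 minus Cry2 stayed between 1.29 and 1.57 and Arntl minus Dbp between 0.75 and 1.37. No paired analysis was possible because the library numbers in the titles of the 2 groups have only 1 number in common. Arntl and Npas2 had the lowest levels of the members, 2.44 to 4.07 CPM, and Clock and Per1 the largest standard errors, 0.43 and 0.24.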

Other observations

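The FPKM values of Npas2 and Per1 carried a further source of spread that their counts did not. The transcript length implied by count and FPKM together ranged over 2.39-fold between libraries for Npas2 and 1.46-fold for Per1, against 1.07-fold or less for each of the other 8 members. For Npas2 it was 3189, 1774 and 2294 bases in Wnt1 replicates 1, 2 and 3, and 3163, 1965 and 4233 bases in control replicates 1, 2 and 3. For Per1 it was 3750.2, 3961 and 3697 bases in the Wnt1 libraries, and 3534, 4460.2 and 3065 bases in the control libraries. The control library with the highest Per1 count, replicate 3, thus also had its shortest implied length.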
